A study of Mus musculus with 6 samples.

Results

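This account follows 10 genes for proteins that sit on, or are secreted by, endothelial cells: Pecam1, Ecscr, Emcn, Eng, Clec14a, Cd93, Egfl7, Cd34, Plvap and Vwf. They were chosen by gene symbol as molecules of endothelium in general or of blood vessels in particular, and every probe set that carries one of these symbols alone was taken. That gave 19 of the 45037 probe sets tested, or 10 of 18193 genes. The samples are lymphatic endothelial cells (LECs), the lining cells of lymphatic vessels, on 6 mouse Affymetrix arrays. Tumour-associated LECs (3 samples) came from xenografts of MDA-MB-435, a human cancer line first described as mammary and since then shown to be of melanoma origin, excised 8 weeks after subcutaneous injection. Healthy-skin LECs (3 samples) came from mammary skin of balb-c/nude mice, an athymic strain that lacks mature T cells; for the tumour samples the labels give the xenograft but not the host strain. In both groups the cells were found on sections by a short stain for LYVE-1 and cut out by laser capture, and the RNA went through 1 round of Ribo-SPIA amplification. The samples are labelled as biological replicates, but no label ties each to a separate animal, so the p-values below measure only the spread among these 6 samples, which may be partly technical.

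Endothelium of blood and lymphatic vessels shares a set of surface proteins that hold the cells together, shield the lumen and tune growth factor signals. Blood-vessel endothelium adds molecules for haemostasis and exchange, such as von Willebrand factor and the diaphragm protein PLVAP, and mouse lymphatic capillaries are usually described as low in these. LECs are told apart by LYVE-1, the transcription factor PROX1, podoplanin and the VEGF-C receptor VEGFR-3. In these data signals are given on the log2 scale, where a step of 1 is a doubling, and a gene with several probe sets is represented by the one with the highest mean over all 6 arrays. Levels of different probe sets were not read as relative amounts of RNA, since each binds with its own efficiency. Summed signals of a gene list add the linear signals of its probe sets, so the brightest weigh most in them. Background on each array, set at the 95th percentile of the signals from 27 bacterial controls, lay between 3.42 and 3.91 on the tumour arrays and between 2.96 and 3.81 on the healthy-skin arrays.

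The promoters of Emcn, Egfl7 and Eng, whose signal was higher in tumour-associated LECs without overlap between the groups, and of Cd34, whose signal was lower, are printed first because their regulatory sequence can be set beside the values. RefSeq sequences of build GRCm38.p6, from 250 bases before to 50 after the annotated start, were at hand for 5 of the 10 genes, Clec14a being the other; none was used here for Pecam1, Ecscr, Cd93, Plvap or Vwf. Capitals mark AGGAAG or its reverse complement CTTCCT, letters bound by many transcription factors of the ETS family, which includes regulators of endothelial genes.
Emcn, chr3:137340828-137341127 (+ strand): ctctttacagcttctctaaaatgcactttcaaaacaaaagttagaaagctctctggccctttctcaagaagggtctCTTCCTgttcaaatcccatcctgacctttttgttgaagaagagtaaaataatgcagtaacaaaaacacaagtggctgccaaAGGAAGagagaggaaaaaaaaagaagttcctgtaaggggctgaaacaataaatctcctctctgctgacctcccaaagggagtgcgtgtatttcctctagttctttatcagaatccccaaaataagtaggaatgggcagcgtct
Egfl7, chr2:26580833-26581132 (+ strand): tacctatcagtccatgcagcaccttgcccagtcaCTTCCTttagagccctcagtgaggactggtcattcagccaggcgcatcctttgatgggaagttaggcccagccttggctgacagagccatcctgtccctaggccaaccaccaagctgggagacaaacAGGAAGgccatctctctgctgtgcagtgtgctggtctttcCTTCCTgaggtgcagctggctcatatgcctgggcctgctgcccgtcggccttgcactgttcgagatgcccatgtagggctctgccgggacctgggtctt
Eng, chr2:32646345-32646644 (+ strand): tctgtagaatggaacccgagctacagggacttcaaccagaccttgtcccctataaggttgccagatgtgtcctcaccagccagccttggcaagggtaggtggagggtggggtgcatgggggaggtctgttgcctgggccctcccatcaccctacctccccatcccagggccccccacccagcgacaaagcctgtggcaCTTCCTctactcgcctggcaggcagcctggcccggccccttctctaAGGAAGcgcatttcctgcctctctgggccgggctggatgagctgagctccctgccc
Cd34, chr1:194938571-194938870 (+ strand): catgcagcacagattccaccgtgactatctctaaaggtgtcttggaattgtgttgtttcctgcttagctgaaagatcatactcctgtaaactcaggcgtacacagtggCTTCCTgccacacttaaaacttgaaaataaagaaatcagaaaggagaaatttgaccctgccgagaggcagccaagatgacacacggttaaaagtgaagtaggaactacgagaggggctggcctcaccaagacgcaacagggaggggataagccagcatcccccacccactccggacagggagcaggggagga
The Emcn window holds 2 such matches, this Egfl7 window 3, the Eng window 2 and the Cd34 window 1. Of the 7 windows of these 5 genes, which include 2 further Egfl7 starts, 5 hold the letters on either strand, against 35.4% of all 32851 promoter windows of 300 bases. The Clec14a window and 1 Egfl7 window hold none. The gene whose signal was lower carries a match as well as those whose signal was higher, and a match is a description of the letters, not evidence of a site in use. None of the 7 windows holds AGATAA or its reverse complement (GATA factors), TATAAA or its reverse complement, or CACGTG, letters found in 11.2%, 13.6% and 7.15% of all windows. Egfl7 is also the host gene of a microRNA of endothelium, which these arrays were not used to measure; its mature sequence is shown with the seed, bases 2 to 8, in capitals.
mmu-miR-126a-3p, within Egfl7, chr2:26591402-26591423 (+ strand, GRCm38.p6): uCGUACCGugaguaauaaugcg

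The label of the samples was set against 4 defining LEC genes. Lyve1, whose protein was the stain, had 9.64, 9.41 and 9.65 in tumour-associated LECs against 3.21, 7.58 and 6.81 in healthy-skin LECs, and the value of 3.21 lies below the 3.81 background of healthy-skin replicate 1. Prox1 averaged 6.86 ± 0.67 in tumour-associated LECs and 5.91 ± 1.25 in healthy-skin LECs (SD, n = 3 each here and below). Pdpn, the gene of podoplanin, averaged 8.22 ± 0.09 and 7.18 ± 0.85 in the same groups, and Flt4, the gene of VEGFR-3, 9.56 ± 0.07 and 7.79 ± 0.63. Prox1, Pdpn and Flt4 were above background on all 6 arrays. Signal of keratinocyte genes was measured too, at 3.90 to 5.63 (mean log2 of 20 genes) in the tumour samples and 6.48 to 7.19 in the healthy-skin samples. In such samples fewer cells of a type and less RNA per cell cannot be told apart. The mean of 18 hybridization control probe sets was 13.20, 12.78 and 13.36 (log2) on the tumour arrays and 13.01, 12.35 and 12.33 on the healthy-skin arrays (exact two-sided permutation p = 0.2, where 0.1 is the smallest possible for 3 against 3). The part of either in the results below was not tested.

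Most of the 10 genes had more signal in tumour-associated LECs than in healthy-skin LECs, but none passed the test over all probe sets. The difference was positive for 8 genes, where 57.3% of all genes had a positive one, and negative for Cd34 and Clec14a, with a median of 0.69 (log2) against 0.08 over all genes. The 3 tumour values all lay above the 3 healthy-skin values for 4 genes, Ecscr, Emcn, Eng and Egfl7, where 6.58% of all genes did so. They all lay below for Cd34, where 5.36% of all genes did. Counted by probe set, 6 of the 19 were higher and 1 was lower without overlap, where 6.22% and 4.91% of all probe sets were. By limma with Benjamini-Hochberg adjustment no gene of the 10 passed an adjusted p of 0.05, a level reached by 0.00444% of probe sets and 0.0055% of genes. Their adjusted p ran from 0.557 to 0.967. At an unadjusted p under 0.05 there were 2 genes higher, Ecscr and Emcn, where 3.22% of all genes were, and 1 lower, Cd34, where 4.28% were. Of the 10 representing probe sets, 7 were above background on all 6 arrays, the exceptions being Clec14a, Cd34 and Vwf.

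**Figure D1:**
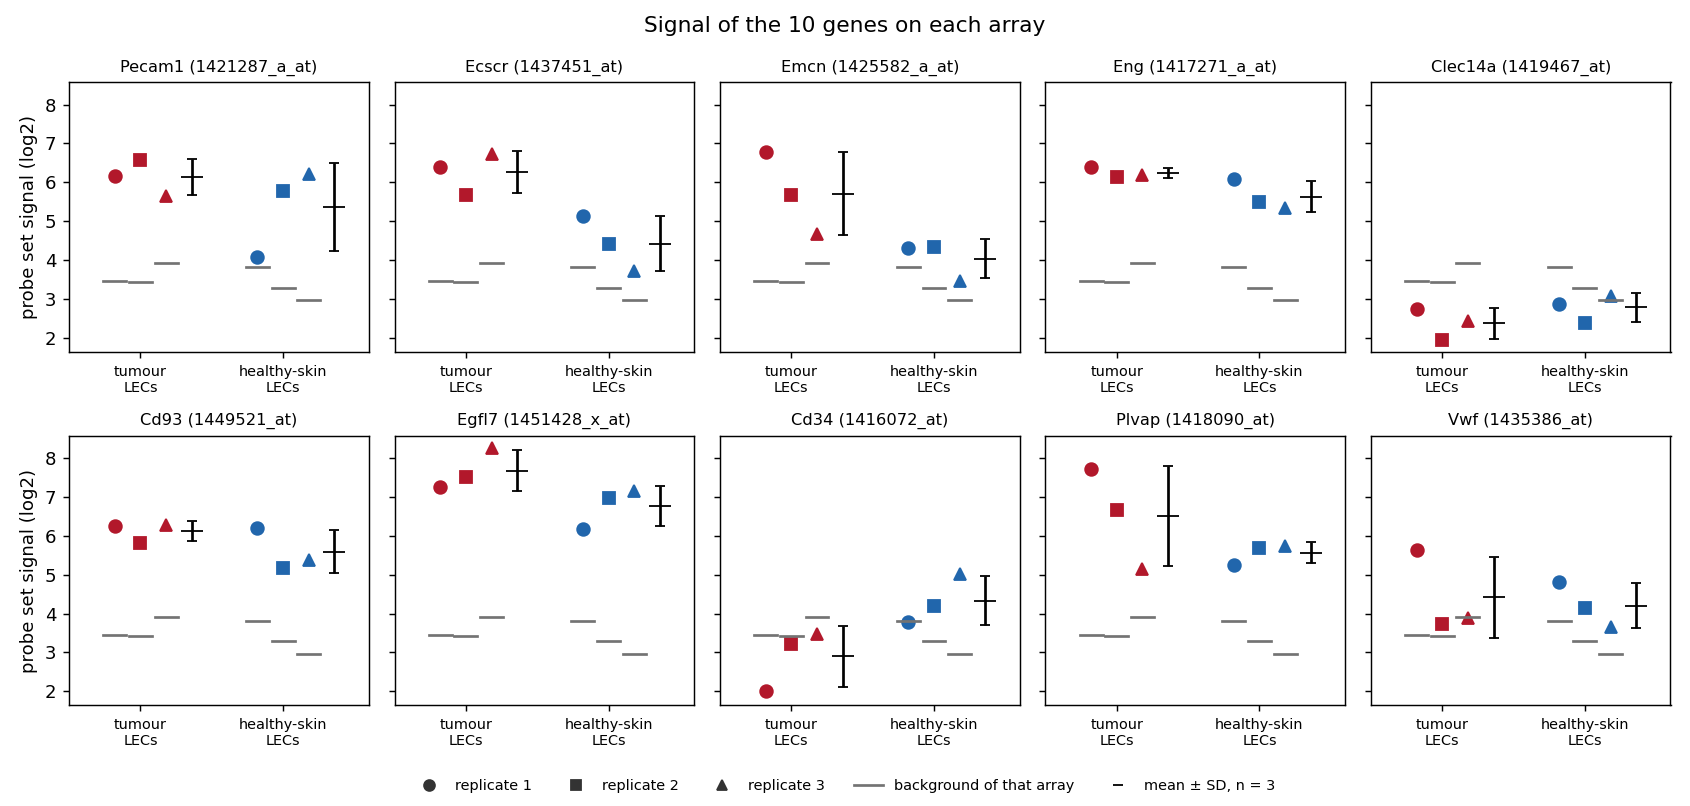
Signal (log2) of the representing probe set of each of the 10 genes, with tumour-associated LECs at the left and healthy-skin LECs at the right of each panel. Symbols are single arrays, grey bars the background of that array, and black marks the mean ± SD (n = 3). The groups are apart for Ecscr, Emcn, Eng, Egfl7 and Cd34, and Clec14a lies near or below background in both.

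**Figure D2:**
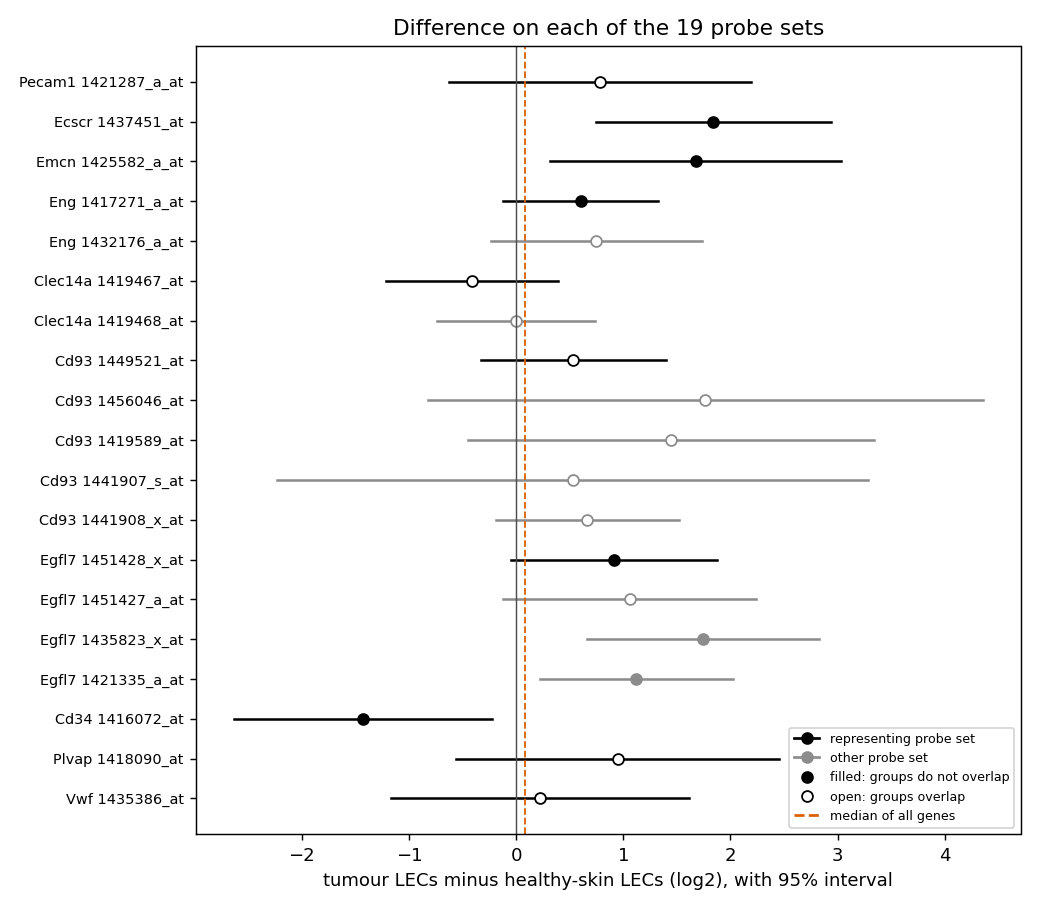
Difference between tumour-associated and healthy-skin LECs (log2, horizontal axis) on each of the 19 probe sets, with the limma 95% interval. Black is the representing probe set of a gene, filled circles are probe sets whose groups do not overlap, and the dashed line is the median of all genes (0.08). Only Cd34 and 1 Clec14a probe set lie clearly to the left of 0, and intervals that leave out 0 belong to Ecscr, Emcn, 2 Egfl7 probe sets and Cd34.

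Pecam1 and Ecscr encode transmembrane proteins of endothelial cells. PECAM1, also called CD31, binds its own kind at cell borders and is also found on platelets and many leukocytes. Its signal was 6.17, 6.57 and 5.66 in tumour-associated LECs and 4.07, 5.78 and 6.21 in healthy-skin LECs. The groups overlapped, with healthy-skin replicate 1 far below the other 5 arrays. The difference of 0.78 (standard error 0.59, 95% interval -0.63 to 2.19, limma adjusted p = 0.873) became 0.14 without healthy-skin replicate 1 and 1.21 without healthy-skin replicate 3. ECSCR, an endothelial surface protein linked to cell migration, had 6.40, 5.67 and 6.72 in tumour-associated LECs and 5.14, 4.40 and 3.72 in healthy-skin LECs. Every tumour value was above every healthy-skin value, and the difference of 1.84 (3.58-fold, standard error 0.46, 95% interval 0.74 to 2.94) was the widest among the 10 representing probe sets. Its limma adjusted p was 0.557, and with any 1 array left out the difference stayed between 1.49 and 2.20. Healthy-skin replicate 1, lowest in Pecam1, was the highest of its group in Ecscr.

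Emcn and Cd34 both encode sialomucins, heavily glycosylated proteins of the luminal surface that can serve as ligands of L-selectin in specialised venules. Endomucin is known from capillaries and veins, and CD34 from blood capillaries but also from stromal fibroblasts and the hair follicle bulge of mouse skin. Emcn had 6.79, 5.67 and 4.67 in tumour-associated LECs and 4.32, 4.33 and 3.45 in healthy-skin LECs. The groups did not overlap, yet the tumour samples spread over more than the gap between group means, which was 1.68 (3.20-fold, standard error 0.57, limma adjusted p = 0.709). Cd34 went the other way, with 2.01, 3.23 and 3.48 in tumour-associated LECs and 3.78, 4.19 and 5.02 in healthy-skin LECs. None of the 3 tumour values and 2 of the 3 healthy-skin values were above background. The size of the measured difference of -1.43 (standard error 0.51, limma adjusted p = 0.713) is therefore uncertain. With each tumour value raised to the background of its array, the Cd34 means differed by 1.67-fold, lower in tumour-associated LECs. That is not a firm lower bound, since healthy-skin replicate 1 (3.78) was itself below its background (3.81). Podxl, which encodes podocalyxin, a relative of CD34, averaged 7.92 ± 0.60 in tumour-associated LECs and 5.998 ± 1.03 in healthy-skin LECs without overlap (limma adjusted p = 0.647).

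Other cells of skin carry Cd34, and their markers were read on the same arrays. The fibroblast list (12 genes measured) had summed signals of 1509 to 16155 in tumour samples and 8967 to 23809 in healthy-skin samples. The hair follicle bulge list (10 genes) had sums of 450.4 to 1207 in tumour samples and 503.3 to 1353 in healthy-skin samples, and a median difference of 0.11, which became -0.05 without tumour replicate 1, -0.04 without healthy-skin replicate 2 and 0.35 without tumour replicate 3. Both overlapped between the groups (exact permutation p = 0.8 for each mean). The keratinocyte list, with sums of 488.7 to 3058 in tumour samples and 4289 to 6332 in healthy-skin samples, was lower in every tumour sample, as Cd34 was (exact permutation p = 0.1, the smallest possible), with Krt10, a keratin of the upper epidermis, at 4.74 ± 1.41 in tumour samples and 9.66 ± 0.58 in healthy-skin samples. The part of these 3 cell types in the Cd34 values was not tested.

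Eng encodes endoglin, a co-receptor for ligands of the TGF-beta and BMP family that is abundant on growing endothelium. It had 6.39, 6.14 and 6.18 in tumour-associated LECs and 6.09, 5.48 and 5.34 in healthy-skin LECs. The groups did not overlap, but tumour replicate 2 and healthy-skin replicate 1 lay close together. The difference was 0.60 (1.52-fold, standard error 0.30, limma adjusted p = 0.843), and a second probe set, whose groups overlapped, gave 0.75 (standard error 0.41, limma adjusted p = 0.857). Its partner receptors differed in sign, and all 4 overlapped between the groups. Tgfbr1 and Tgfbr2, the TGF-beta receptors of type I and type II, differed by 0.69 and 0.98. For Tgfbr2 healthy-skin replicate 1 (3.41) was below its background (3.81). Acvrl1, the type I receptor ALK1, averaged 3.69 ± 0.21 in tumour-associated LECs and 4.90 ± 1.502 in healthy-skin LECs, of which healthy-skin replicate 1 had 6.63. The tumour values of Acvrl1 were near background, with tumour replicate 3 (3.60) below it (3.91). Bmpr2, the type II receptor, averaged 7.61 ± 0.49 and 8.26 ± 0.49 in the same groups. Id3, a transcriptional regulator induced by BMP signals, averaged 6.14 ± 0.20 in tumour-associated LECs and 5.33 ± 0.20 in healthy-skin LECs without overlap (difference 0.80, limma adjusted p = 0.709).

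Clec14a and Cd93 belong to one small family of C-type lectins (group 14), and the ectodomains of CLEC14A and CD93 bind the matrix protein MMRN2. Clec14a was barely measurable. Its representing probe set had 2.73, 1.95 and 2.41 in tumour-associated LECs and 2.87, 2.37 and 3.08 in healthy-skin LECs, above background on 1 healthy-skin array alone, and its other probe set was above background on no array. No fold is given for it, and a difference was not detectable at this signal. Cd93, also found on monocytes and other myeloid cells, had 5 probe sets, which did not follow one pattern over the arrays. The representing one, 1449521_at, had 6.26, 5.82 and 6.28 in tumour-associated LECs and 6.21, 5.17 and 5.37 in healthy-skin LECs. The groups overlapped, and the difference was 0.53 (standard error 0.36, limma adjusted p = 0.87), moving to 0.33 without healthy-skin replicate 2 and 0.85 without healthy-skin replicate 1.

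The remaining Cd93 probe sets gave positive differences of 0.53 to 1.77, none of them with separate groups. On 1456046_at the tumour values were 8.30, 5.92 and 3.61, against 3.70, 4.74 and 4.10 in healthy-skin LECs. Here tumour replicate 1 stood far above the other 5 arrays, while tumour replicate 3 and healthy-skin replicate 1 were below background. Tumour replicate 1 was also far above the rest on 1441907_s_at, with 6.97, 3.31 and 2.36 in tumour-associated LECs and 3.11, 4.62 and 3.33 in healthy-skin LECs, of which tumour replicates 2 and 3 and healthy-skin replicate 1 were below background. It was highest on 1419589_at as well (6.99). The representing probe set, by contrast, had nearly equal values in tumour replicates 1 and 3. The faintest, 1441908_x_at, was above background on no array. Thbd, which encodes thrombomodulin and is a further gene of the family, had 7.29, 6.32 and 5.11 in tumour-associated LECs and 4.82, 4.63 and 4.31 in healthy-skin LECs (difference 1.66, limma adjusted p = 0.699), with tumour replicate 1 again the highest. Cd248, the member of the family in stromal cells and pericytes, differed by 0.27 and Mmrn2, the ligand of CLEC14A and CD93, by 0.43, both with overlap.

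**Figure D3:**
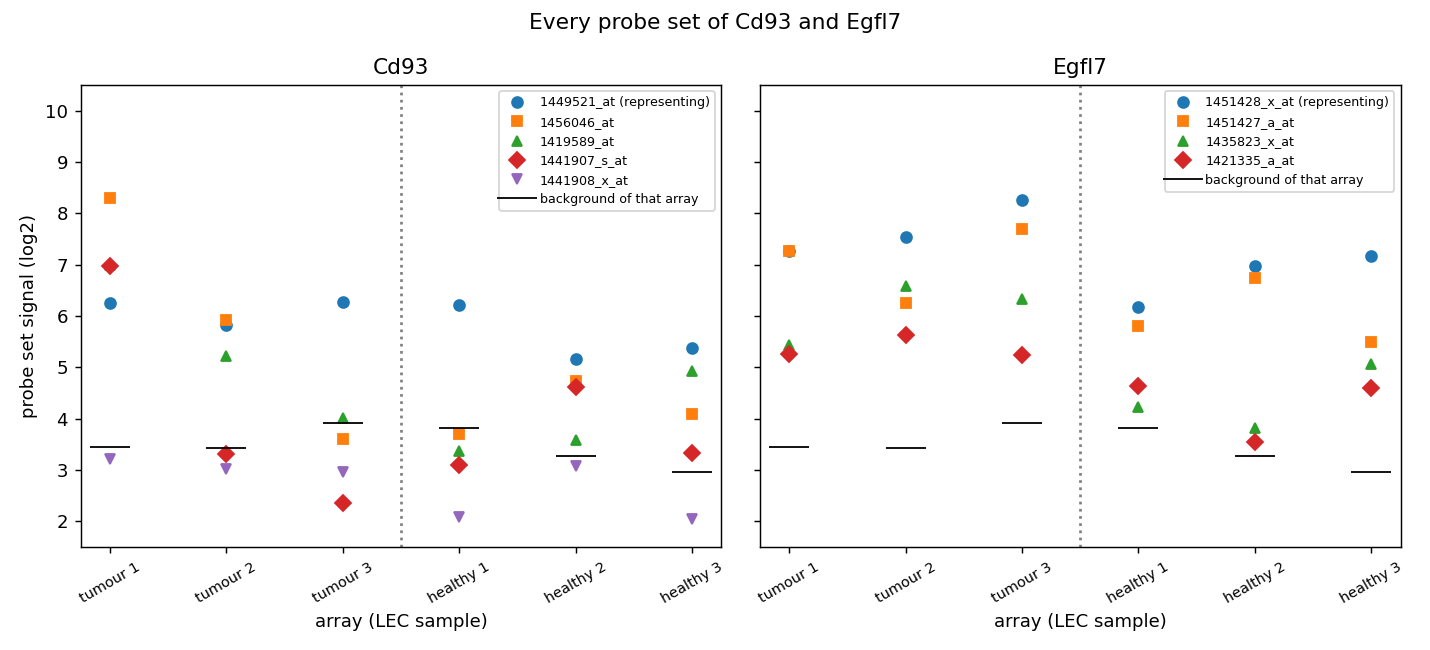
Signal (log2) of all 5 Cd93 and all 4 Egfl7 probe sets on each array, tumour-associated LECs at the left of the dotted line and healthy-skin LECs at the right; black dashes are the background of each array. Tumour replicates 1 and 3 lie far apart on 1456046_at (8.30 and 3.61) and close together on 1449521_at (6.26 and 6.28). All 4 Egfl7 probe sets lie above background on every array.

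Egfl7 encodes a secreted protein with EGF-like domains that endothelial cells deposit in their matrix. All 4 of its probe sets were above background on 6 arrays, all had positive differences, of 0.91 to 1.74, and 3 had groups that did not overlap. The representing probe set, 1451428_x_at, had 7.26, 7.53 and 8.26 in tumour-associated LECs and 6.18, 6.96 and 7.17 in healthy-skin LECs (difference 0.91, 1.88-fold, standard error 0.40, limma adjusted p = 0.803). The widest difference was on 1435823_x_at, with 5.44, 6.58 and 6.33 in tumour-associated LECs and 4.22, 3.82 and 5.07 in healthy-skin LECs (3.35-fold, limma adjusted p = 0.579). Probe sets with the ending _x_at hold probes that match other sequences as well. The 2 without that ending gave 1.06 (1451427_a_at, groups overlapping) and 1.12 (1421335_a_at, 5.37 ± 0.22 in tumour-associated LECs and 4.25 ± 0.62 in healthy-skin LECs, without overlap). The 4 probe sets share the same RNA samples, so their agreement adds no samples.

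Plvap and Vwf encode the molecules of exchange and haemostasis named above, usually described as low in mouse lymphatic capillaries. PLVAP forms the diaphragms of fenestrae and caveolae. Plvap had 7.72, 6.68 and 5.14 in tumour-associated LECs and 5.26, 5.69 and 5.75 in healthy-skin LECs. Tumour replicates 1 and 2 were above all healthy-skin values, and tumour replicate 3 was below them. The difference of 0.95 (standard error 0.63, 95% interval -0.56 to 2.45, limma adjusted p = 0.868) became 0.34 without tumour replicate 1 and 1.63 without tumour replicate 3. Vwf, the gene of the platelet-binding glycoprotein stored in Weibel-Palade bodies, had 5.63, 3.73 and 3.89 in tumour-associated LECs and 4.80, 4.13 and 3.65 in healthy-skin LECs. Tumour replicate 1 was the highest array and the groups overlapped throughout, with tumour replicate 3 below its background. The difference of 0.22 (standard error 0.58, 95% interval -1.17 to 1.61, limma adjusted p = 0.967) turned to -0.38 without tumour replicate 1 and to -0.05 without healthy-skin replicate 3.

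Clec14a and Cd34 were above background on no tumour array. Of the other 8 genes, tumour replicate 1 held the highest tumour value for 4 (Emcn, Eng, Plvap and Vwf), replicate 3 for 3 (Ecscr, Cd93 and Egfl7) and replicate 2 for Pecam1. Relative to the healthy-skin mean, Emcn stood at 2.75, 1.64 and 0.64 in tumour replicates 1, 2 and 3, and Plvap at 2.16, 1.11 and -0.43. On the same arrays Ecscr stood at 1.98, 1.25 and 2.30 and Egfl7 at 0.49, 0.76 and 1.49. Pericyte and smooth muscle markers, which come with blood vessels, stood at 0.69, 1.06 and -0.14 relative to their healthy-skin mean in tumour replicates 1, 2 and 3, with all 13 genes above background on at least 1 array. Their summed signal was 454.7 to 1915 in tumour samples and 689.9 to 1038 in healthy-skin samples (exact permutation p = 0.4 for the mean). Tumour replicate 3 was thus the lowest tumour sample in Plvap, in Emcn and in pericyte markers. It was also the lowest tumour sample for the mean of keratinocyte, fibroblast, hair follicle bulge and Weibel-Palade body lists, and of all 6 arrays it had the highest background (3.91) and the smallest share of probe sets above it (39.6%). Whether cells of blood vessels took part was not tested.

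**Figure D4:**
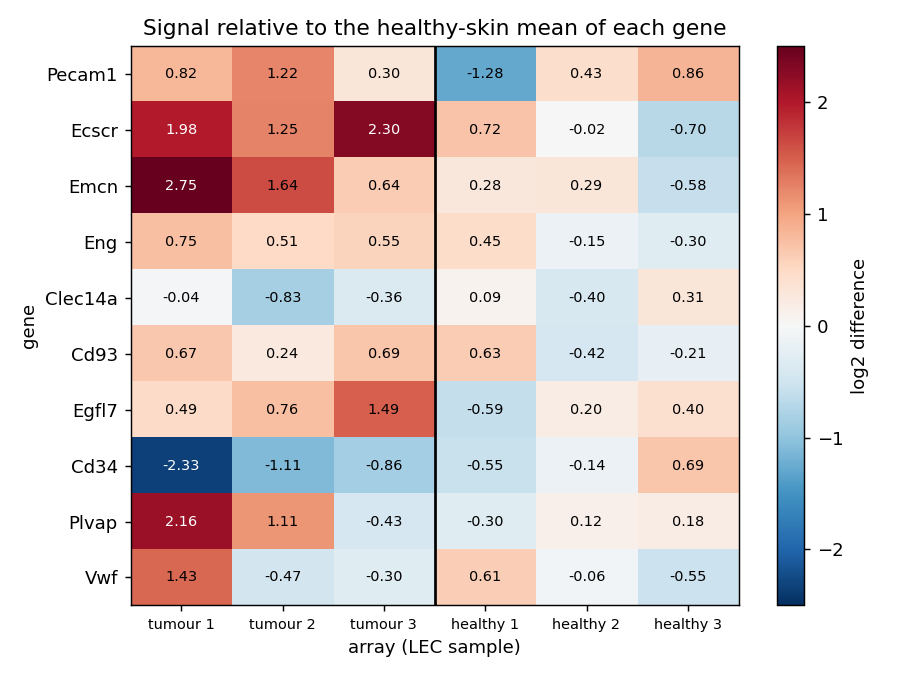
Signal of each of the 10 genes on each array minus the healthy-skin mean of that gene (log2), tumour samples at the left of the black line. Red is above and blue below the healthy-skin mean. Emcn and Plvap are highest in tumour replicate 1 (2.75 and 2.16) and Ecscr and Egfl7 in tumour replicate 3 (2.30 and 1.49), while Cd34 is below 0 in all 3 tumour samples.

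Since some of the 10 genes are active in blood cells, markers of those were read as well. Macrophage markers (15 genes measured, all but Itgam above background on at least 1 array) had summed signals of 1593 to 7268 in tumour samples and 1462 to 1600 in healthy-skin samples, with the peak in tumour replicate 2. Their mean was 5.38, 7.24 and 5.66 (log2) in tumour samples and 5.15, 5.34 and 4.86 in healthy-skin samples, higher in every tumour sample (exact permutation p = 0.1, the smallest possible). Of the 15 genes 14 had positive differences, with a median of 0.89, or 0.40 without tumour replicate 2. Csf1r, the receptor of the macrophage growth factor CSF1, averaged 10.02 ± 1.06 in tumour samples and 8.18 ± 0.24 in healthy-skin samples. Pecam1 was likewise highest in tumour replicate 2, whereas the representing probe set of Cd93 was lowest of its group there. Platelet and megakaryocyte markers (12 genes) had summed signals of 188.4 to 214.2 in tumour samples and 118.4 to 254 in healthy-skin samples, and Gp5, Treml1, Clec1b, Nrgn and Tubb1 were above background on no array. The highest sum, in healthy-skin replicate 1, rests on Ppbp, a platelet chemokine gene with 6.78 there and 1.44 to 1.89 on the other arrays. Without Ppbp, left out after the values were seen, the sums were 184.7 to 211.1 in tumour samples and 115.7 to 143.8 in healthy-skin samples. The mean of these 11 genes overlapped, at 3.62, 3.50 and 3.75 (log2) in tumour samples and 3.51, 3.32 and 2.94 in healthy-skin samples. Itgb3 is among them and also in the list of relatives below. It had 6.51, 6.55 and 5.52 in tumour samples and 3.78, 5.21 and 5.33 in healthy-skin samples. For the mean of all 12 genes the exact permutation p was 0.6. The part of macrophages in the Pecam1 and Cd93 values and of platelets in the Vwf and Pecam1 values was not tested.

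Wider lists of endothelial genes put the 10 in context. Of 28 other pan-endothelial genes 27 had positive differences, and the median was 0.77 (log2) against 0.08 over all genes. For 6 all tumour values lay above all healthy-skin values, where 6.58% of all genes did so. No gene of the list passed by limma, and 5 were higher at an unadjusted p under 0.05, where 3.22% of all genes were. Cldn5, the tight junction protein claudin-5, had 7.31, 7.92 and 7.37 in tumour-associated LECs and 4.93, 5.41 and 5.73 in healthy-skin LECs (limma adjusted p = 0.244). Cdh5, which encodes VE-cadherin, and Esam, an adhesion molecule of the same junctions, differed by 2.10 and 1.19. Kdr, the VEGF receptor VEGFR-2, was above background on no healthy-skin array, and tumour replicate 2 (2.93) was also below its background (3.42). Its measured difference was 1.18 (limma adjusted p = 0.708). With each healthy-skin value raised to the background of its array, the Kdr means differed by 1.32-fold, higher in tumour-associated LECs, which is not a firm lower bound. Of 28 measured blood-vessel genes outside the 10, 19 had positive and 9 negative differences, with a median of 0.23 (0.11 without tumour replicate 2 or 3), and none passed by limma. At an unadjusted p under 0.05 there were 3 higher and 3 lower, where 3.22% and 4.28% of all genes were. Slco2a1, a prostaglandin transporter, averaged 5.64 ± 0.72 in tumour-associated LECs and 4.35 ± 0.28 in healthy-skin LECs, while Hey1, a Notch target, averaged 4.54 ± 0.37 and 5.78 ± 0.79 in the same groups. Cd36, a fatty acid receptor that capillaries share with fat cells, averaged 3.58 ± 0.65 in tumour-associated LECs and 6.13 ± 1.55 in healthy-skin LECs. Only 1 of the 3 tumour values of Cd36 was above background, so the size of its difference is uncertain. Of 19 lymphatic genes 13 were positive, with a median of 0.23 (0.14 without healthy-skin replicate 1 and 0.40 without healthy-skin replicate 3). Without overlap 5 were higher and 0 lower, where 6.58% and 5.36% of all genes were, and none passed by limma. Their mean was 6.112, 6.61 and 6.60 (log2) in tumour-associated LECs and 5.45, 6.111 and 5.98 in healthy-skin LECs (exact permutation p = 0.1, the smallest possible). For the means of the other lists in this comparison the exact permutation p was 0.1 for pan-endothelial genes and 0.3 for blood-vessel genes. Ackr2 and Itga9 differed by 2.56 and 1.85 without overlap (limma adjusted p = 0.185 and 0.301). The difference between these lists was not tested.

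**Figure D5:**
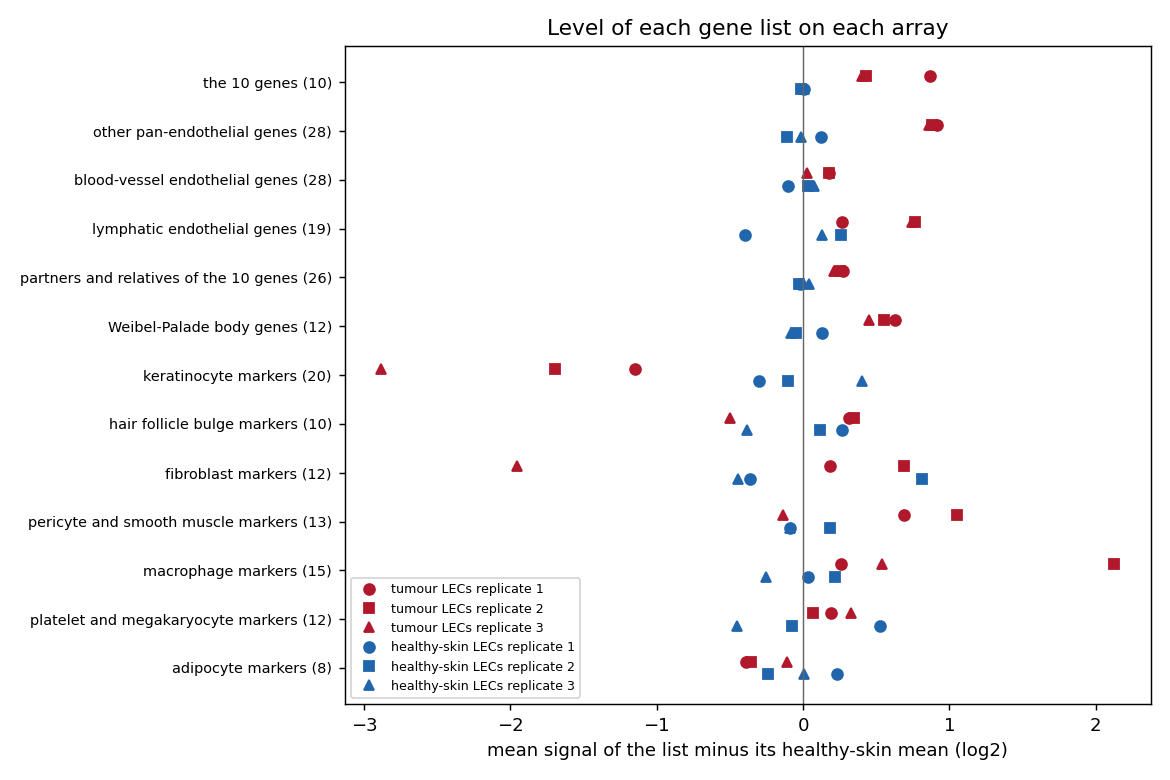
Mean signal of each gene list on each array minus its mean over the healthy-skin arrays (log2), with the number of measured genes in brackets. Red symbols are tumour samples and blue ones healthy-skin samples. Other pan-endothelial genes lie at 0.86 to 0.92 in all 3 tumour samples, keratinocyte markers at -2.88 to -1.15, and macrophage markers reach 2.12 in tumour replicate 2.

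Single genes for ligands, co-receptors and relatives of the 10 proteins differed in both directions. Of 26 measured genes 17 had positive and 9 negative differences (median 0.29, or 0.14 without tumour replicate 3 and 0.18 without healthy-skin replicate 2). Without overlap 4 were higher and 3 lower, where 6.58% and 5.36% of all genes were, and none passed by limma. The list mean was 4.87, 4.85 and 4.81 (log2) in tumour-associated LECs and 4.58, 4.57 and 4.64 in healthy-skin LECs. It was higher in every tumour sample (exact permutation p = 0.1, the smallest possible). The clearest negative value was that of Ptpn11, the phosphatase SHP2 that docks on the cytoplasmic tail of PECAM1, at 5.41 ± 0.39 in tumour-associated LECs and 6.75 ± 0.19 in healthy-skin LECs (limma adjusted p = 0.517). Genes of the Weibel-Palade body, the granule that stores von Willebrand factor, had a median difference of 0.28 over 12 genes, with none passing. That median was 0.08 without healthy-skin replicate 2, 0.12 without tumour replicate 1 and 0.52 without healthy-skin replicate 1. For the mean of this list the exact permutation p was 0.1, the smallest possible. Angpt2, the TIE2 ligand kept in these granules, averaged 6.06 ± 0.66 in tumour-associated LECs and 4.54 ± 0.65 in healthy-skin LECs, and Plat, tissue plasminogen activator, 5.16 ± 0.26 and 3.29 ± 0.79 in the same groups, both without overlap. The healthy-skin values of Plat were partly near background, with healthy-skin replicate 3 (2.46) below it (2.96). Igfbp7 differed by 2.44 with overlap, and Stxbp5, which restrains granule release, averaged 5.78 ± 0.42 in tumour-associated LECs and 6.66 ± 0.54 in healthy-skin LECs. Vwf itself, the main cargo, differed by 0.22.

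The mean of the 10 representing probe sets was 5.74, 5.30 and 5.27 (log2) in tumour-associated LECs and 4.87, 4.85 and 4.88 in healthy-skin LECs. The healthy-skin values are nearly equal although single genes differed between those arrays by up to 2.14: Pecam1, Egfl7 and Plvap were lowest in replicate 1, and Ecscr, Eng, Cd93 and Vwf were highest there. Among 2307 other genes with a mean signal of at least 6, the 5 most like this profile over the 6 arrays by Pearson's r, used here only to rank them, were Furin, Plod1, Eif6, Lamc1 and Dab2ip (0.932 to 0.990). Furin, a protease of the secretory pathway, had 7.94, 7.52 and 7.41 in tumour-associated LECs and 7.15, 7.07 and 7.04 in healthy-skin LECs. Plod1, an enzyme of collagen modification, differed by 2.15 and Lamc1, a laminin chain of basement membranes, by 1.51. With 6 arrays in 2 groups, many genes that differ between the groups will rank high on this measure.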

How the data were processed

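Each of 6 arrays gave 1 signal per probe set, for 3 samples per group. Per the labels and the submitters' processing notes the authors used RMA, which corrects background, equalises arrays by quantiles and summarises probes; its software, version and filters are not stated there. The deposited intensity values are linear: none was below 0 and array medians were 9.49 to 10.93. They were converted to log2 with no pseudocount, and 64 controls among 45101 probe sets were left out. The platform annotation named 1 gene for 34945 of the rest, several for 932 and none for 9160. All 10 genes were found.

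Tumour-associated and healthy-skin LECs were compared in limma 3.58.1 under R 4.3.3 (lmFit, eBayes; two-sided; 2.82 prior degrees of freedom). P-values were adjusted by Benjamini-Hochberg over 45037 probe sets, with a threshold of 0.05. Exact permutation tests used SciPy 1.17.1. The fit was tested on simulated data. Equalising arrays removes overall differences in RNA amount, and amplification from few cells adds spread. The number of arrays, and signal over background, limit precision.

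The 10 genes and the 12 other lists were chosen with earlier results of these data known, so the 10 genes were not tested as a set. The means of the 12 other lists were compared between the groups by exact permutation. Those p-values are descriptive, since the choice of lists was not blind to the data. Of 221 genes in all, 205 had a probe set. Genes were named by rule: the 10 with every probe set, 4 LEC genes, up to 4 per list by smallest p, and 5 by likeness. Not all that the rule chose from the lists are printed. For keratinocytes only Krt10 is, and Sbsn, Calml3 and Krtdap are left out. Acvrl1, Bmpr2, Tgfbr1, Tgfbr2, Cd248, Mmrn2 and Ppbp were added after their values were seen. The alternatives tried are given in the closing section. Coordinates are given for sequences only, since no source names a genome build for the probe sets.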

Additional observations from a re-analysis of the deposited data

How the results depend on the processing

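No gene of the 10 passed an adjusted p of 0.05 under any alternative run: of 148 recomputed values all but 2 kept their sign, and the smallest adjusted p was 0.199 (Ecscr, array weights). The exceptions were both Vwf, whose difference lay between -0.38 and 0.57 with 1 array left out. With 1 array left out in turn, 4 or 5 of the 10 genes were higher without overlap, where 9.9% to 20.7% of all genes were, a count chosen after seeing the data. Over all probe sets, 2 were called in the fit reported; 21 when probe sets not above background on at least 3 arrays were left out, 22 with array weights, 1 with eBayes trend and robust options, and 0 with log2(value + 16), median centring, a log2 fold minimum of 1 or the replicate number as a block. With 1 array left out there were 0 to 23. The cause of these shifts was not tested. The pseudocount of 16 brought Cd34 to -0.62, since it compresses faint signals. Same-numbered samples did not deviate together (r of 0.04, 0.10 and -0.01 over all probe sets), so the replicate block pairs samples by number alone. Of 168 recomputed list medians 8 moved by more than the spread between replicates; the median of other pan-endothelial genes was 0.43 to 0.99 over all its alternatives. Clec14a and Cd34 drop out under the filter on dim probe sets, and for them signal over background is the limit.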
